A study of Mus musculus with 8 samples.

Results

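Gata2, Gata3, Gata4, Gata5, Gata6, Hand1 and Hand2 were followed through 3 histone marks in mouse neuronal stem cells with either wild-type H3.3 or the K27M form of that histone. The 7 genes were taken by name from 26219 RefSeq genes with curated transcripts. Every enriched interval that overlapped the gene span plus 1 kb each side (the gene window) was assigned to the gene, which gave 29 of the 131828 deposited intervals. A gene is called marked in a library when at least 1 interval of that library overlaps its window.

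The GATA factors are zinc-finger proteins that bind the letters GATA and direct the formation of blood, heart, gut and certain neurons. Hand1 and Hand2 are basic helix-loop-helix proteins that pair with E proteins on E-boxes and are best known from heart, trophoblast, limb and sympathetic neurons. In neural cells such genes are classical targets of Polycomb repressive complex 2, which lays down H3K27me3. H3.3K27M, in which methionine replaces lysine 27, hampers that complex and is found in human diffuse midline gliomas.

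Both groups were neuronal stem cells labelled as p16Ink4a and p14Arf negative, stably transduced with one of these 2 histones, and grown with EGF and bFGF (20 ng/ml each). The sources used here do not say whether a line was 1 clone or a pool. Chromatin immunoprecipitation sequencing gave 1 library per genotype for each of H3K27me3, H3K4me3 (found at promoters) and H3K27ac (found at active promoters and enhancers). With 1 library in each group no difference had a replicate check, so all comparisons describe these 6 libraries and carry no test.

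All values are tag densities, the number of sequenced tags over a bin of about 32 bp. The mean density is the mean over an interval as deposited, so at a gene inside a long interval it describes the interval and not the gene alone. How many tags each library held is unknown, so no depth and no interval for counting error could be given. A difference of scale between the libraries cannot be told apart from a genome-wide change. All 12 neural stem and progenitor markers examined, among them Nes and Sox2, carried H3K4me3 in both libraries, and 11 of the 12 carried H3K27ac in both. None of 4 endoderm markers carried either of these marks. None of 4 heart muscle markers carried H3K27ac, and 1 of the 4 (Actn2) carried H3K4me3. Of the blood markers, Ptprc and Tal1 carried H3K4me3 in both libraries, and Ptprc also carried H3K27ac in the wild-type library. H3K4me3 was found in both libraries at 5 of 5 neuron, 2 of 4 endothelial and 2 of 4 mesenchymal markers. H3K27ac was found in both libraries at 2 of the neuron markers (Map2 and Tubb3) and at the endothelial marker Pecam1 (37.3 and 42.2). It was found in wild type alone at Rbfox3, Tek and Col1a1, and the part of other cell types in these values was not tested.

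All 7 genes carried H3K27me3 in the wild-type library, and 6 of the 7 still did in the K27M library. Hand1 was the gene without a K27M interval. The share over all genes was 30.1% in wild type and 9.55% in K27M. Of the genes marked in wild type, 30.3% kept an interval and 69.7% had none in K27M, against 6 and 1 of the 7. The 6 genes fell into 3 with lower density in the K27M library (Gata2, Gata4 and Gata5) and 3 with higher density (Gata3, Gata6 and Hand2).

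The order of the genes changed between the libraries. In the wild-type library the mean density was 15.1 at Gata4, 14.5 at Hand2, 11.6 at Gata5, 9.38 at Gata3, 8.73 at Gata2, 6.05 at Gata6 and 3.78 at Hand1. Gata4 and Hand2 thus lay at the top and Hand1 at the bottom, below the 5th percentile of all marked genes (3.90). In the K27M library it was 21.3 at Hand2, 13.5 at Gata3, 7.49 at Gata6, 6.63 at Gata4, 4.05 at Gata2 and 3.17 at Gata5. The median over marked genes was 6.09 in wild type and 3.22 in K27M, so that Gata5 came to lie at the middle of the K27M list and Hand2 at its percentile 99.3. Without replicates no pair of neighbours in either order can be called different.

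**Figure D1:**
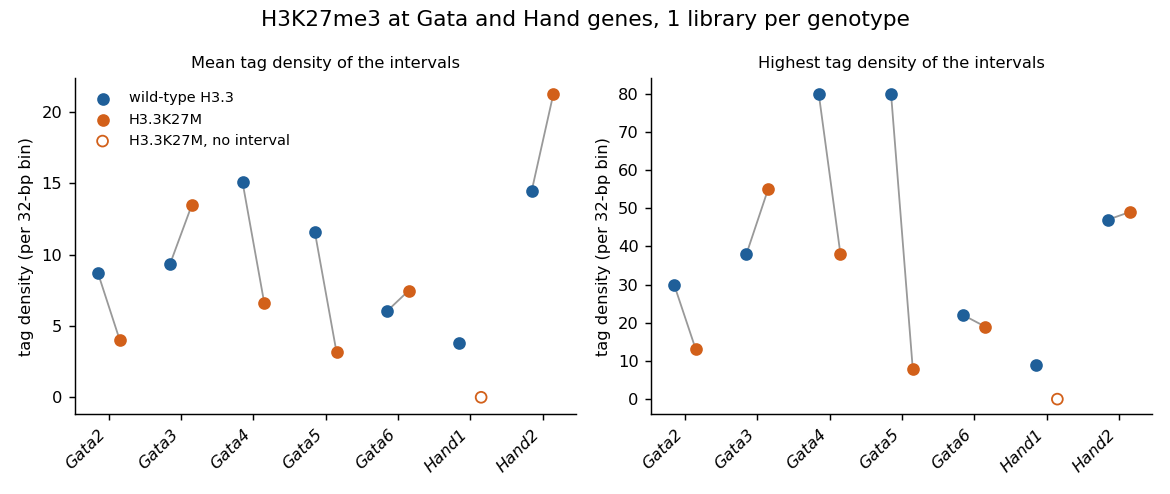
H3K27me3 tag density at each gene in the wild-type (blue) and K27M (orange) library, as the mean over the overlapping intervals weighted by the bases they have in the gene window (left) and as the highest bin (right). Each point is 1 library, and lines join the libraries of a gene. The highest bin lay outside the gene window at Gata3 in both libraries and at Gata5 and Hand2 in wild type. Mean density was higher in K27M at Gata3, Gata6 and Hand2 and lower at Gata2, Gata4 and Gata5, while Hand1 had no K27M interval (open circle).

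Ratios below are log2((K27M density + 1) / (wild-type density + 1)), a scale that shrinks changes where densities are low. Its median over the 2389 genes marked in both libraries was -1.12, with quartiles of -1.44 and -0.76. It was 0.53 at Hand2, 0.49 at Gata3, 0.27 at Gata6, -0.95 at Gata2, -1.08 at Gata4 and -1.59 at Gata5. At the deposited scale 3 of the 6 genes were at least 1.5-fold lower, where 81.5% of all genes were, and none was at least 1.5-fold higher, where 0.712% were. A ratio above 0 was found for 3 of the 6 genes and for 5.06% of all genes. Relative to the median ratio, Hand2 stood at 1.65, Gata3 at 1.60 and Gata6 at 1.39, which is at least 1.5-fold above it for 3 of 6 genes against 16.3% of all genes. Over called bases none of the 6 was at least 1.5-fold below the median ratio, as 10.8% of all genes were. Gata5 was lowest at -0.47. With uncalled bases in the window set to 0, the median of all genes was -1.54. Gata2 (-2.26), Gata5 (-2.16) and Gata4 (-1.71) then stood below it, and Gata3, Gata6 and Hand2 above 0. The directions at Gata2, Gata4 and Gata5 depended on scale: with the sums of density made equal between the libraries their ratios turned to 1.64, 1.60 and 0.93, and relative to the median Gata2 and Gata4 stood at 0.17 and 0.04. From the top of the 2389 genes, Hand2 ranked 21, Gata3 28 and Gata6 64.

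**Figure D2:**
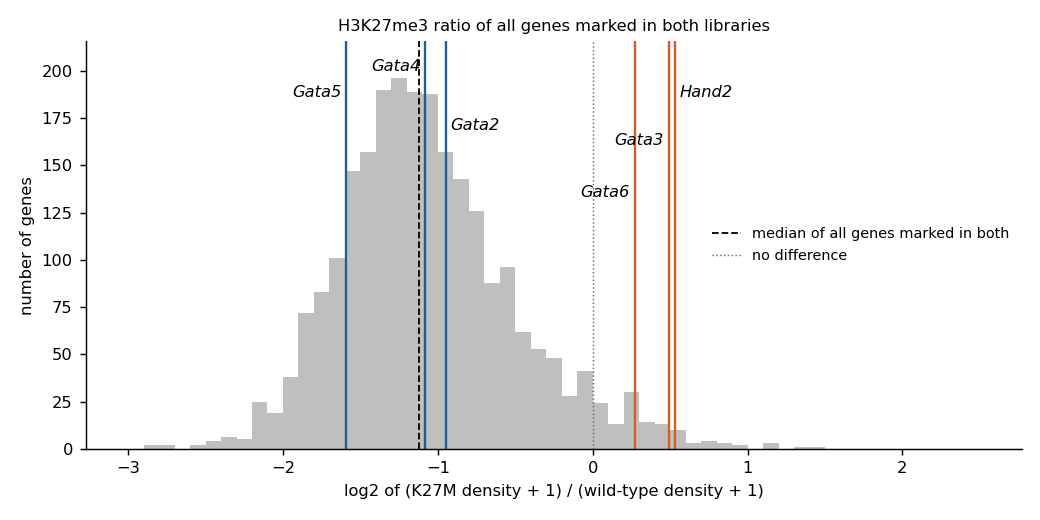
Number of genes by log2 ratio of K27M to wild-type H3K27me3 density, over the 2389 genes marked in both libraries. Vertical lines mark 6 of the genes described here; Gata3, Gata6 and Hand2 (orange) lie above 0 and Gata2, Gata4 and Gata5 (blue) lie below 0, on either side of the dashed median of -1.12.

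The mean density was higher in K27M at 3 genes. Hand2, needed for the right ventricle, the limb bud and sympathetic neurons, spans chr8:57320983-57324517 in mm10. Its whole window lay inside 1 interval in each library, of 48.8 kb in wild type and 51.6 kb in K27M, and the K27M interval covered 99.6% of the wild-type one. The mean density was 14.5 in wild type and 21.3 in K27M, while the highest density was 47 and 49. The genes Hand2os1 and Hdnr, noncoding neighbours of Hand2, shared both intervals, so the values are those of the locus. The summit (the position of the highest density) lay 8151 bp below the lower end of the gene in the wild-type library and 2657 bp inside the gene in the K27M library, 10.8 kb apart. The promoter of Hand2 is shown because it sits in the densest K27M interval among the 7 genes; it covers chr8:57320733-57321032 on the plus strand, from 250 bases before to 50 after the start, and all 300 bases lay under H3K27me3 in both libraries. Here and below the sequences are RefSeq's for GRCm38.p6, the assembly of mm10, and capitals mark CG dinucleotides, the letters of CpG islands.
Hand2 promoter: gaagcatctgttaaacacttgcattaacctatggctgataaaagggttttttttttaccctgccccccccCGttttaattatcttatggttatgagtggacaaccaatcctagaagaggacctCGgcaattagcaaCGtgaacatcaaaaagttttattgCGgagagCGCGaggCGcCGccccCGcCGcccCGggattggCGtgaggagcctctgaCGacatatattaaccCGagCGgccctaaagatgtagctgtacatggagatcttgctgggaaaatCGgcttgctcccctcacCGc

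It held 17 CG dinucleotides, against a median of 7 over 32851 RefSeq promoter windows of 300 bp, and 31.4% of these windows held as many. GATA-type motifs, spelled AGATAA or TGATAA, or the same with G as the last letter, and read on both strands, were found at 2 places. E-boxes (CANNTG, alike on both strands) were also found at 2 places, as CATCTG and as CACTTG. No GATA-type motif overlapped an E-box there. Of all promoter windows 29.8% held such a GATA-type motif and 72.3% an E-box.

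Gata3, a factor of T cells, sympathetic neurons and the inner ear, spans chr2:9857078-9887953. The H3K27me3 interval at Gata3 went from a mean density of 9.38 to 13.5 and from a highest density of 38 to 55. Both summits lay outside the gene window, past the upper end of the span. They stood 32362 bp above its lower end in wild type and 33898 bp in K27M, so these values are those of the locus. The interval measured 17.6 kb in wild type and 19.4 kb in K27M, and the K27M interval covered 95.5% of the wild-type one. These intervals covered 24.8% and 22.4% of the gene window. The interval did not reach the gene's start in RefSeq's promoter table (9878600 on the minus strand): it began 2200 bp upstream of it in wild type and 3000 bp upstream in K27M. In both libraries it did cover the upper end of the gene span (9887953), the upstream end on that strand. The genes 4930412O13Rik and 9230102O04Rik lay in the same interval. The wild-type library held a further 3 intervals within 50 kb of Gata3, and with them H3K27me3 covered 45.6 kb there, against 19.4 kb in the K27M library.

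Gata6, a factor of primitive endoderm, heart and pancreas, spans chr18:11052510-11085636. A single wild-type interval of 18.0 kb with a density of 6.05 covered 29.3% of the window. In the K27M library 2 intervals covered 38.4%, one of 13.0 kb with a density of 7.70 inside the gene and one of 4.00 kb with a density of 1.83 at the neighbour Gata6os. The K27M intervals covered 60.0% of the wild-type one. The lower end of the gene span lay between them, where the wild-type interval covered it. Inside the gene window, Gata6 was the only one of the 6 genes with a longer covered length in K27M (13.5 against 10.3 kb). Of all genes marked in both libraries, 8.25% had this. Taken whole, the intervals were longer in K27M at Gata3 and Hand2 but not at Gata6. The highest density at Gata6 went down, from 22 to 19. With a window of 5 kb each side the log2 ratio of Gata6 came to 0.06 instead of 0.27. The K27M summit lay 5.90 kb farther into the gene than the wild-type one.

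The mean density was lower in K27M at the other 3, where the K27M list held shorter pieces of the wild-type domain. Such breaks were not particular to these 3, as Gata6 also had 2 K27M intervals over its wild-type one. Gata4, a factor of heart muscle and gut endoderm, spans chr14:63198914-63271712. It lay wholly inside a wild-type interval of 115 kb with a mean density of 15.1 and a highest density of 80, which also held Neil2. In the K27M library 4 intervals covered 59.2% of the window and 39.1% of the wild-type interval. In order along the chromosome their highest densities were 8, 6, 19 and 38, and the last of them, of 17.2 kb, reached past the upper end of the gene. Its summit lay 464 bp from the wild-type summit. Taken by the densest K27M interval alone the log2 ratio was -0.55 instead of -1.08.

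Gata5, an endocardial factor, spans chr2:180325088-180335503 and had the lowest ratio of the 6. The wild-type interval over it measured 173 kb and also held Gata5os, Cables2, Rbbp8nl, B230312C02Rik and the muscle microRNA genes Mir1a-1 and Mir133a-2 with the host gene Mir1a-1hg. In the K27M library 8 separate intervals covered 30.1% of that length, with mean densities from 2.10 to 4.29. The one at Gata5 covered 57.2% of the window, with a mean density of 3.17 and a highest density of 8. The wild-type highest density of 80 belonged to a summit 62384 bp above the lower end of the Gata5 span and outside the gene, where the densest bin of the K27M pieces (16) was also found, so the ratio of highest densities (-3.17) does not compare the same place. The Gata5 promoter, chr2:180334630-180334929 on the minus strand, is shown because it kept H3K27me3 over all 300 bases in both libraries while 30.1% of the wild-type interval around it was covered in K27M.
Gata5 promoter: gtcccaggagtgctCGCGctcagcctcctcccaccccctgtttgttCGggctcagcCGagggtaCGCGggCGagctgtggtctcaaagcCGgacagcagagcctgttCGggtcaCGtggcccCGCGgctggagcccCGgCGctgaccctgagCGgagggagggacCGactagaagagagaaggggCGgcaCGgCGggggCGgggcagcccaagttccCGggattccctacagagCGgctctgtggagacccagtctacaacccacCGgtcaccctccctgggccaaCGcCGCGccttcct

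It held 26 CG dinucleotides, a number that 16.9% of all promoter windows reached. It held 1 E-box (CACGTG) and 0 GATA-type motifs.

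Gata2, which maintains blood stem cells and acts in midbrain GABAergic neurons, spans chr6:88193891-88207032 and has 2 starts in RefSeq's promoter table. In the wild-type library 2 H3K27me3 intervals, of 26199 and 3399 bp by end minus start and with densities of 8.76 and 8.21, covered 94.7% of the window. In the K27M library a single interval of 4599 bp with a density of 4.05 covered 23.2%. The summits lay 256 bp apart, 445 and 701 bp after the first start. Within 50 kb of the gene H3K27me3 covered 102 kb in wild type and 14.2 kb in K27M. Over the whole window, with uncalled bases at 0, the log2 ratio was -2.26, against -0.95 over called bases. The medians of all genes were -1.54 and -1.12 by these measures, so Gata2 stood below the first and above the second.

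The 2 starts of Gata2 are shown because they differed in their marks. At the first, chr6:88193641-88193940 on the plus strand, all 300 bases lay under H3K27me3 in both libraries and none under H3K4me3. At the second, chr6:88198414-88198713 on the plus strand, all 300 bases lay under H3K27me3 in the wild-type library and none in the K27M library. There H3K4me3 covered 216 of the 300 bases in wild type and all 300 in K27M.
Gata2 first start: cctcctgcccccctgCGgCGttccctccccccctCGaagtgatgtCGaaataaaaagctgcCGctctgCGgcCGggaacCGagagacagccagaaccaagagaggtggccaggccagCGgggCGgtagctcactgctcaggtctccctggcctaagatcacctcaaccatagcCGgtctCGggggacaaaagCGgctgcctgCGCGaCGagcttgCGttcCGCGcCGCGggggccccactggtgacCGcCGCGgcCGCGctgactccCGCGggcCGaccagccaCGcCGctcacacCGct
Gata2 second start: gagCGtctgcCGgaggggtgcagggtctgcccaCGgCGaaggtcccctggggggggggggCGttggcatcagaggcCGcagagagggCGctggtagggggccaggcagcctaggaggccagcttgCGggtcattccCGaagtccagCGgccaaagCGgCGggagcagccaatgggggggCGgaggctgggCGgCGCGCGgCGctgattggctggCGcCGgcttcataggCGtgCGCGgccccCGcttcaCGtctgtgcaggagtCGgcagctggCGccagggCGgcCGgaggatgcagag

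The windows held 32 and 29 CG dinucleotides, numbers that 9.52% and 12.9% of all promoter windows reached. Neither held a GATA-type motif, and the second held 1 E-box (CAGCTG).

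Hand1, a factor of trophoblast giant cells and the left ventricle, spans chr11:57828713-57832147. Its wild-type interval of 7.60 kb covered the whole window, with a mean density of 3.78 and a highest density of 9, the lowest of the 7 genes. No K27M interval lay nearer than 253 kb. The 5th percentile of mean density over all wild-type H3K27me3 intervals was 3.54. Whether K27M tags remained there below the calling threshold cannot be seen in these lists. In wild type 4 of the 7 windows were covered over their whole length (Gata4, Gata5, Hand1 and Hand2), against 18.8% of all marked genes. In K27M this held for 1 of 6 (Hand2), against 9.22% of all marked genes. Window length was not matched in these shares. It was 5.43 kb at Hand1, 5.54 kb at Hand2, 12.4 kb at Gata5 and 74.8 kb at Gata4. At Gata2, Gata3 and Gata6 it was 15.1, 32.9 and 35.1 kb.

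**Figure D3:**
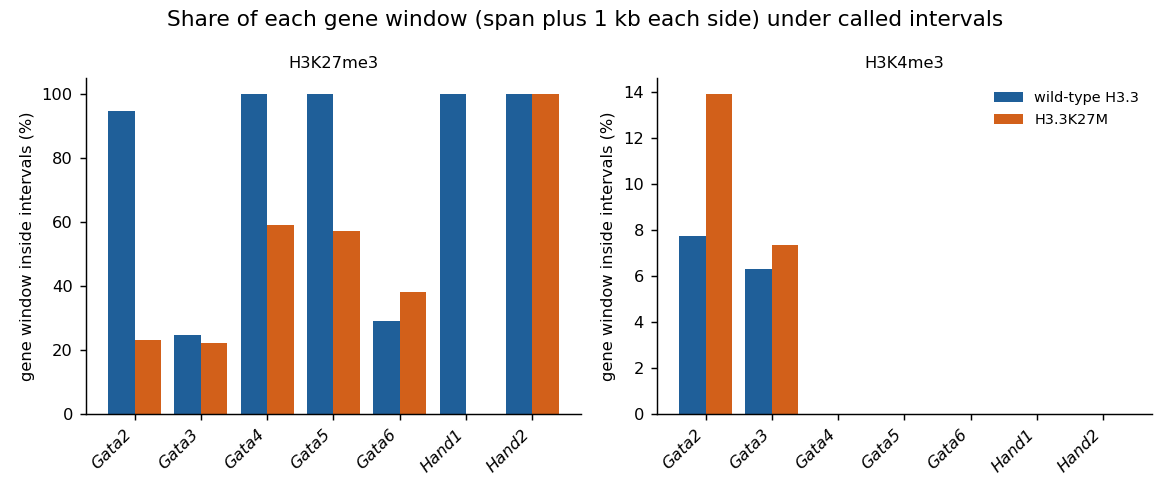
Percent of each gene window (span plus 1 kb each side) under called intervals, for H3K27me3 (left) and H3K4me3 (right), in the wild-type (blue) and K27M (orange) library; bars start at 0 and are single libraries. H3K27me3 coverage fell from 94.7% to 23.2% at Gata2 and stayed at 100% at Hand2, and H3K4me3 was called at Gata2 and Gata3 alone.

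H3K4me3 was called at 2 of the 7 genes, Gata2 and Gata3, in both libraries. The share over all genes was 53.0% and 53.4%. Of all genes marked in wild type 98.1% kept an interval and 1.94% had none in K27M, against 2 and 0 of these 2. Of all unmarked genes 3.13% had an interval in K27M alone, against 0 of the other 5. Among genes with H3K27me3, 46.5% also had H3K4me3 in wild type, against 2 of 7 here, and 56.7% in K27M, against 2 of 6. Gata4, Gata5, Gata6, Hand1 and Hand2 had no H3K4me3 interval in either library.

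At Gata2 the mean H3K4me3 density was 35.8 in wild type and 47.4 in K27M, and the highest density 75 and 116. The covered length was 1170 and 2107 bp. The log2 ratio of 0.40 stood close to the median of all 13625 genes marked in both (0.35). In the wild-type library all of this H3K4me3 lay inside the H3K27me3 interval. In the K27M library none did: the H3K27me3 interval ended 1649 bp before the H3K4me3 began.

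At Gata3 the mean H3K4me3 density was 46.6 and 66.0, the highest density 138 and 194, and the covered length 2082 and 2423 bp. The 4 wild-type intervals became 2 in the K27M library, with the summit at 9879360 in both. The log2 ratio was 0.49. At neither gene did the mean density differ 1.5-fold, as it did upwards at 11.0% of all genes and downwards at 0.183%. Over the whole window, with uncalled bases at 0, the log2 ratio was 1.01 at Gata2 and 0.57 at Gata3, and by highest density it was 0.62 at Gata2. H3K4me3 and H3K27me3 lay side by side at Gata3, with a gap of 648 bp in wild type and 1520 bp in K27M. The Gata3 promoter, chr2:9878551-9878850 on the minus strand, is shown as the start with the densest H3K4me3 of the 7 genes; 193 of its 300 bases lay under H3K4me3 in wild type and all 300 in K27M, and none under H3K27me3.
Gata3 promoter: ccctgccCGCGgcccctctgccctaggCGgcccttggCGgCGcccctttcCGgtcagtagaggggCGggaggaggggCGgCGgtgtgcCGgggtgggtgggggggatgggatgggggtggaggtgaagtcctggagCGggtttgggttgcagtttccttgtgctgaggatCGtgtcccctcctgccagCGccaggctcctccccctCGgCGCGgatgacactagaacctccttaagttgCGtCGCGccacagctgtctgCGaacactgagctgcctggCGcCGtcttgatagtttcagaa

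It held 22 CG dinucleotides, a number that 23.1% of promoter windows reached, with 1 GATA-type motif and 1 E-box (CAGCTG) that did not overlap. The promoter table had no entry for Gata4, Gata6 and Hand1.

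H3K27ac was called at 1 of the 7 genes in the wild-type library and at none in the K27M library, against 49.1% and 41.4% of all genes. The single interval, at Gata3, was 210 bp long with a density of 18.1, which 1.91% of all marked genes fell below. It lay inside the densest H3K4me3 interval of the gene. Of all genes with H3K27ac in wild type 83.1% kept an interval and 16.9% had none in K27M, against 0 and 1 of the 1 gene here. No ratio could therefore be formed for these genes; over all genes marked in both, 0.449% were at least 1.5-fold lower and 6.47% at least 1.5-fold higher. Among genes with H3K27me3, 34.9% had H3K27ac in wild type and 24.4% in K27M, against 1 of 7 and 0 of 6 here.

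The active marks nearest to the other genes lay outside them. For Gata4 the nearest H3K4me3 lay 19.9 kb away in both libraries at Fdft1, an enzyme gene of sterol synthesis, with densities of 70.9 and 89.7. For Hand1 it lay 24.8 kb away at Sap30l, and for Gata5 it lay 50.7 and 50.4 kb away at Cables2 and Rbbp8nl. Gata6 stood farthest from H3K27ac, at 315 kb in wild type and 326 kb in K27M, both at Mib1. At Hand2 the K27M library alone held a short H3K4me3 interval of 370 bp (density 28.4) 29.3 kb from the gene, at Hdnr, and the nearest wild-type one lay 85.8 kb away. Within 50 kb of the genes the wild-type library had H3K27ac at Gata2, Gata3, Gata4, Hand1 and Hand2 and the K27M library at Gata4 alone. That is 5 and 1 of the 7, where 72.6% and 66.5% of all genes had an interval so near. The H3K27ac lists differed in length, with 39018 intervals in wild type and 20040 in K27M, and the part of this in the counts was not tested.

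**Figure D4:**
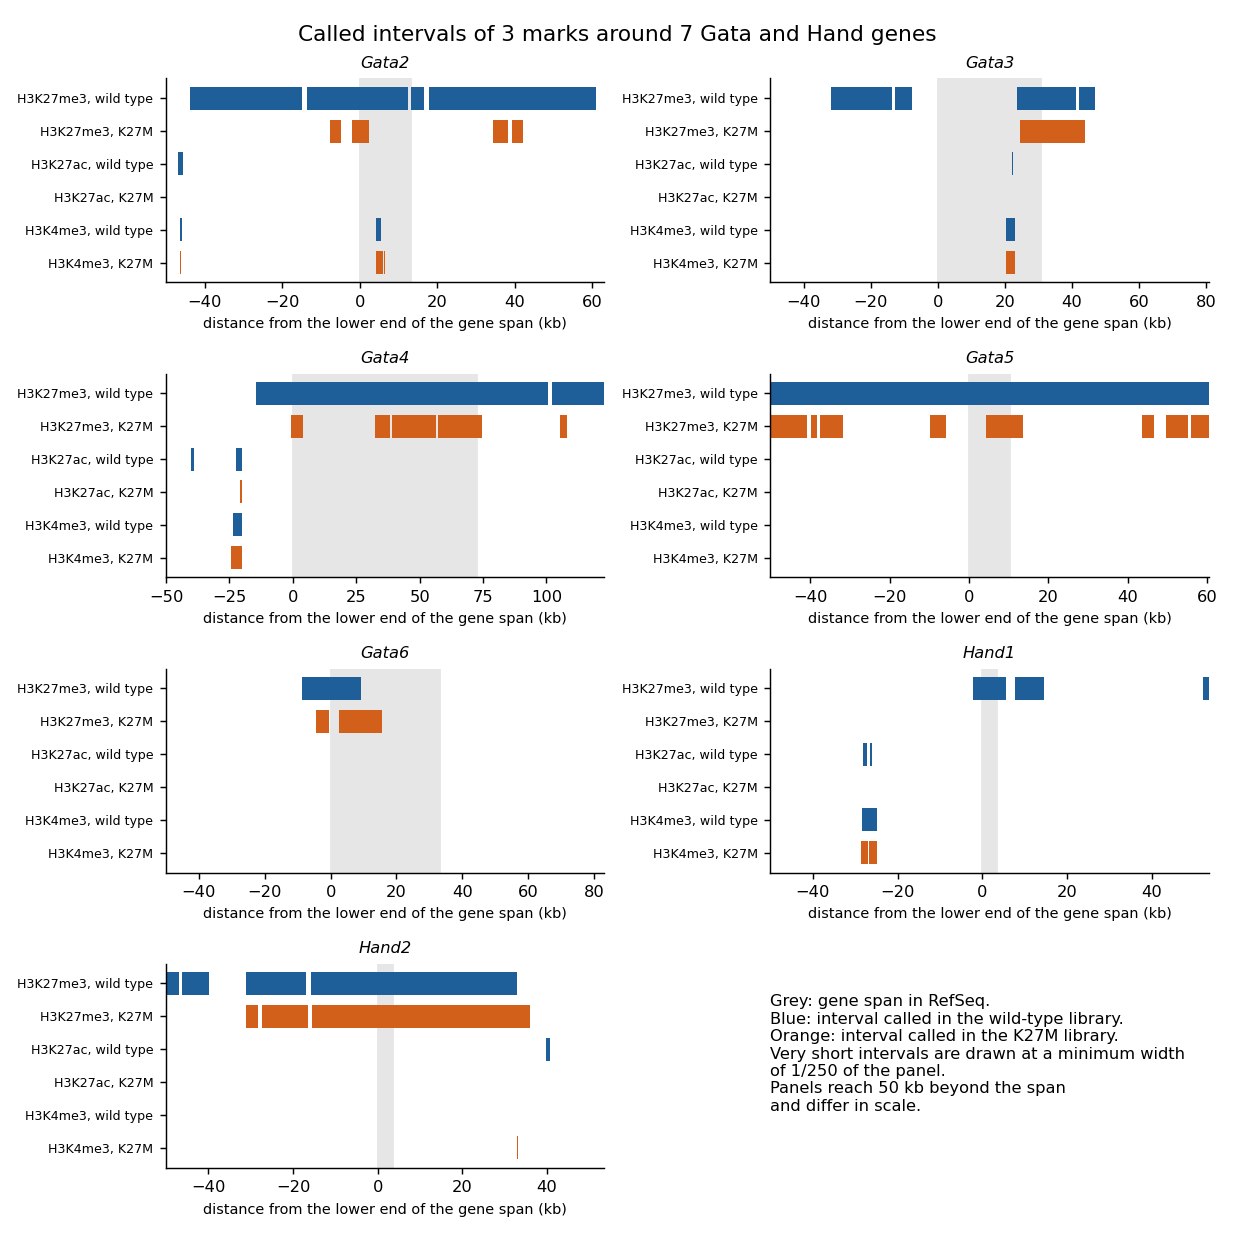
Intervals called for each mark around each gene, in kb from the lower end of the gene span (grey), wild type in blue and K27M in orange, 1 library per row; panels differ in scale. The wild-type H3K27me3 domains of Gata2, Gata4 and Gata5 appear in the K27M rows as separate shorter pieces, and that of Gata6 as 2 intervals. The Hand2 domain has nearly the same ends in both rows.

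By the set of libraries that held an interval, Gata4, Gata5, Gata6 and Hand2 shared 1 pattern (H3K27me3 in both libraries and no active mark) with a total of 911 genes. Hand1 had the pattern with the most genes of those seen here, H3K27me3 in the wild-type library alone, found in 2860 genes. The pattern of Gata2, with H3K27me3 and H3K4me3 in both libraries, was found in 478 genes and that of Gata3 in 208. Likeness over the 6 libraries was measured as the distance in log2(density + 1), with 0 where no interval was called. Hand2 was nearest to Isl1 (distance 0.10; H3K27me3 15.1 and 22.7) and then to Osr1 (0.27; 17.6 and 21.8), both developmental transcription factor genes. Gata6 was nearest to Hoxa13 (0.09; 6.49 and 7.53) and Esrp1 (0.10). Gata4 was nearest to Nmrk2 (0.03) and Adgrg5 (0.08), Gata5 to Sytl1 (0.01) and Cend1 (0.03), and Gata2 to Misp3 (0.11) and Cacna2d2 (0.20). Gata3 had no near match, with Rnf220 at 0.68 and Ppp1r3d at 0.77. Hand1 stood at a distance of 0.00 from Klk1b27 and Zim3, which also had wild-type H3K27me3 alone (3.79 and 3.78).

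Genes that work with GATA and Hand factors were read in the same way, as 7 lists with 82 genes. Of these, 44 carried H3K27me3 in wild type, where 30.1% of all genes did. In both libraries 19 of the 44 (43.2%) carried it, against 30.3% of all genes marked in wild type. The median ratio of the 19 was -0.96, 13 were at least 1.5-fold lower, 2 higher (Tbx20 and Foxa2) and 4 in between. Of all genes marked in both, 81.5% were lower and 0.712% higher by that much. The median of the 6 Gata and Hand genes marked in both was -0.34, and that of all genes -1.12. GATA cofactors had H3K27me3 in 7 of 11 cases in wild type. Ldb2, which bridges LIM and GATA complexes, was the only one marked in both (3.59 and 2.20). Of all genes marked in wild type, 69.7% had no interval in K27M. Zfpm1, which encodes the GATA partner FOG-1, went from 6.14 to no interval. Runx1, a blood factor, had 69.4 kb covered in wild type (density 4.34) and none in K27M, and Tal1, Lmo2, Ldb1 and Fli1 also had a wild-type interval alone. Fli1, an ETS factor of blood and vessels, had higher H3K27ac (19.3 and 39.9) and H3K4me3 (49.3 and 104) in the K27M library. These were the highest log2 ratios among the cofactors (1.01 and 1.06), with medians of 0.18 over 7 and 0.49 over 9 cofactors. At least 1.5-fold higher were 1 of the 7 and 3 of the 9, against 6.47% and 11.0% of all genes marked in both. Among the 6 relatives of the GATA family Gata1, the red cell factor, had H3K27me3 in wild type alone (3.92), and Trps1, Gatad1, Gatad2a and Gatad2b carried H3K4me3 and H3K27ac in both libraries. The E proteins that pair with Hand factors, Tcf3, Tcf4 and Tcf12, carried both active marks in both libraries and no H3K27me3. At Twist2 33.1 kb were covered by H3K27me3 in wild type (density 6.43) and none in K27M.

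Of 16 heart genes 11 were marked in wild type and 5 in both. Over all genes 30.1% were marked in wild type, and of these 30.3% were marked in both and 69.7% in wild type alone. Of the 5 heart genes, Tbx20 (4.52 and 8.68) and Isl1 (15.1 and 22.7) had higher density in K27M. Tbx5 (22.5 and 8.11), Irx4 (14.5 and 2.10) and Tbx3 (15.5 and 2.27) had lower density there. Nkx2-5, which acts with Gata4 in heart muscle, went from 7.80 to no interval, and Myh6, Myl7, Myocd, Nppb and Tbx1 were also marked in wild type alone. Of 13 endoderm genes 8 were marked in wild type and 6 in both, with the highest ratio at Foxa2 (7.80 and 18.5) and the lowest at Sox17 (16.8 and 7.45). Foxa1 (10.3) was marked in the K27M library alone, as was Tcf21 (3.18), where 0.633% of genes without wild-type H3K27me3 were. Of 13 genes of sympathetic and GABAergic neurons 5 were marked in both, and these 5 were at least 1.5-fold lower, as 81.5% of all genes were. They included Th (9.21 and 2.35) and Dbh (16.7 and 4.29), enzymes of dopamine and noradrenaline synthesis. Among signals, Shh, which Hand2 induces in the limb bud, went from 11.1 to 7.67 and Bmp4 from 4.27 to no interval.

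**Figure D5:**
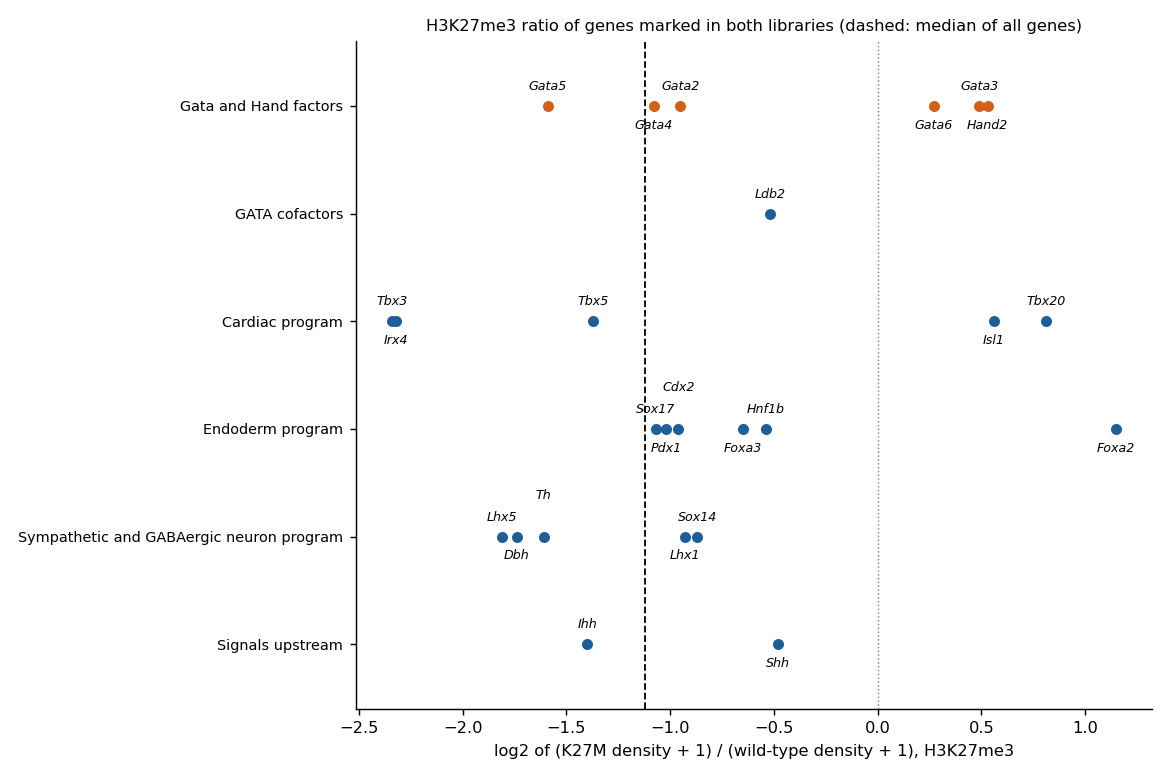
Log2 ratio of K27M to wild-type H3K27me3 density for the 6 Gata and Hand genes (orange) and 19 companion genes (blue) marked in both libraries, 1 row per list, with the median of all genes (-1.12) dashed and 0 dotted. The Gata and Hand, cardiac and endoderm genes have members on both sides of 0, and the sympathetic and GABAergic genes, the signals and the GATA cofactor Ldb2 lie below it.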

How the data were processed

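Per the labels, cells were fixed for 15 min in 1% formaldehyde, and 30 ug of chromatin went into each immunoprecipitation. The authors made 1 interval list per library in mm10, not pooled. The signal values, as deposited by the authors and per the file headers, are the mean and the highest tag density over the bins of an interval. Per the file headers each also has a count of bins, CpG islands, promoters and genes. BWA and SICER are named, per the submitters' processing notes. The sources used here do not give their versions or roles, the thresholds, any scaling or how input entered. Neither of the 2 inputs was analysed here.

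With Python 3.11.15 and pandas 2.3.3, intervals overlapping each RefSeq GRCm38.p6 gene span plus 1 kb each side by at least 1 bp were collected, and mean densities were weighted by the bases inside the window. The mean is over bins that hold a value. As 1 tag may fill several bins, densities were not turned into counts, and precision is unknown. Densities were compared as a ratio with a pseudocount of 1 and called at 1.5-fold. Overlap code was tested on simulated data.

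The genes and lists were chosen with earlier results of these data known. Named were all 7 genes, genes that shared their intervals, the 2 nearest genes by likeness and companion genes with H3K27me3. The remaining companion genes named were picked after their values were seen. A few genes of the lists are not reported here.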

Additional observations from a re-analysis of the deposited data

How the results depend on the processing

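No paired analysis was possible because each group has 1 library. The count of genes marked by H3K27me3 and H3K4me3 stayed within 1.5-fold of the reported one under every window, overlap and density floor tried, although with the wild-type density floor of 3.54 in both lists Gata5 lost its K27M interval. The single H3K27ac call, at Gata3 in wild type, was lost (0 genes) when an overlap of 500 bp or the floor of 25.5 was required. The number of H3K27me3 changes depended on scale: the 3 lower and 0 higher genes became 0 and 3 when ratios were centred on the median of all genes, 1 and 3 with equal 5th percentiles (K27M times 1.76), and 0 and 6 with equal sums (K27M times 7.22). Under equal sums the median of all genes was 1.41, and Gata2, Gata4 and Gata5 turned to 1.64, 1.60 and 0.93; after centring Gata2 and Gata4 came to 0.17 and 0.04. By highest density Gata6 turned to -0.20, and 1 gene, Gata2, passed 1.5-fold upwards in H3K4me3 (0.62); with equal sums its H3K4me3 ratio was -0.01. In all of these alternatives Hand2 and Gata3 stayed above 0 for H3K27me3, from 0.06 and 0.28 up to 3.32 and 3.25. For several of them this was fixed in advance. Centring and the rescalings raised every ratio, and a pseudocount cannot change a sign. The densest interval and the wider window gave the main ratios again. Highest density (0.06 at Hand2 and 0.52 at Gata3) and the whole window at Gata3 (0.28) could have turned a ratio. Spreading tags over empty bins, an alternative chosen after seeing the data, changed no H3K27me3 call.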
